A study of Mus musculus with 8 samples.

Results

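Box C/D snoRNAs of 70 numbers were followed in small RNA libraries from mouse bone marrow progenitors that carried an inducible MLL-ENL fusion and from wild-type (WT) progenitors. They are 108 of the 964 rows of the deposited table. Members were chosen by name alone: every row whose name begins with Snord, in capitals or not, was taken, except for 31 numbers (11, 13, 14, 22, 25 to 35, 44, 47, 56, 57, 70, 74 to 81, 86, 110 and 118). The table holds 279 snoRNA rows in all, and those outside the members are 48 other box C/D rows, 95 box H/ACA rows, 15 scaRNA rows and 13 rows of other snoRNA names. Row names are given here without the transcript suffix that every member carries. Of the 108 members, 50 have a mouse symbol such as Snord21, and 58 have a numbered name such as SNORD97.1, in which the last digit tells apart rows of 1 snoRNA number.

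The series held 4 iMLL-ENL libraries and 4 WT libraries. The cells were GMLPs (granulocyte-monocyte-lymphoid progenitors), sorted from bone marrow and kept for 3 days in culture with doxycycline, which both groups received. MLL-ENL is a leukaemia fusion of MLL, a histone methyltransferase, with ENL, a protein of the transcription elongation machinery. The sources used here give neither the promoter that drives the transgene nor the age of the mice, the level of the fusion was not analysed here, and the table holds no messenger RNA marker against which the cell type could be checked. Nothing in the labels states that each replicate is a mouse of its own, so p-values refer to the spread among these libraries, which may be technical.

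Box C/D snoRNAs are short nucleolar RNAs, most of them cut from introns, that carry a C box near the 5′ end and a D box near the 3′ end. They assemble with fibrillarin, NOP56, NOP58 and SNU13, and the bases just upstream of a D box, or of an internal D′ box, pair with a target RNA. Fibrillarin then places a 2′-O-methyl group on the target base that pairs with the fifth base upstream of the box. Most known targets lie in 18S and 28S ribosomal RNA, some lie in U6 snRNA or tRNA, and several snoRNAs, called orphans, have no assigned target.

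All 50 members with a mouse symbol matched a transcript of GENCODE release M21 on GRCm38 by name, and 49 of them lay inside another gene on the same strand. They were 64 to 238 bases long, with a median of 76. The first sequences shown belong to the members with a mouse symbol at both ends of the response: Snord21, Snord82, Snord99 and Snord53 were called higher in iMLL-ENL cells, and Snord89, Snord65 and Snord1a had fold changes among the lowest of the members with a sequence. They are printed 5′ to 3′ on the RNA strand with T for U, and capitals mark the first TGATGA (the C box letters) and the last CTGA within the final 20 bases (the D box letters), where they were found. Snord53 has no CTGA there, and Snord1a has no TGATGA.
Snord21: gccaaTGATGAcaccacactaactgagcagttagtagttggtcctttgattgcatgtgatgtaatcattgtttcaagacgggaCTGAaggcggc
Snord82: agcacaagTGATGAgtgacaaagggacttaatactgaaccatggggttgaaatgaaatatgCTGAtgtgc
Snord99: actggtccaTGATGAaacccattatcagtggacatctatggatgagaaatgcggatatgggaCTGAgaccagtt
Snord53: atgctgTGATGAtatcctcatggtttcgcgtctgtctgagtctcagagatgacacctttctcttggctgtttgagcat
Snord89: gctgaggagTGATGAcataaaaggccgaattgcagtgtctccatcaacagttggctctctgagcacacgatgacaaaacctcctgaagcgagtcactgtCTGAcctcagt
Snord65: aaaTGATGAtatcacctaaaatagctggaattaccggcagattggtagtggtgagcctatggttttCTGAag
Snord1a: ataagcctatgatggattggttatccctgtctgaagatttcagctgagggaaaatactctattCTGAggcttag

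Snord21 is read at chr5:107904555-107904648 on the plus strand, within the ribosomal protein gene Rpl5. Snord82 is at chr1:86356261-86356330 on the minus strand, within Ncl, the gene of nucleolin. Snord99 is at chr4:132310691-132310764 on the plus strand, within the snoRNA host gene Snhg12, and Snord53 at chr17:71640879-71640956 on the plus strand, within Wdr43. Snord89 is at chr1:39548745-39548854 on the minus strand, within the non-coding gene Gm15832. Snord65 is at chr11:62604515-62604586 and Snord1a at chr11:116674598-116674671, both on the plus strand and within the non-coding genes 2410006H16Rik and 1810032O08Rik. Searched on the RNA strand only, TGATGA was found in 37 of the 50 member transcripts (74.0%), against 26.1% of the 1508 snoRNA transcripts of the annotation. CTGA stood within the last 20 bases of 48 of the 50 (96.0%), against 35.4% of the same 1508. The 1508 include box H/ACA snoRNAs, which lack both boxes by definition, and no match says only that these letters are not there.

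Values are in reads per 1000000 (RPM) with no division by length. If 1 step between values is 1 read, which could not be settled in 6 of the 8 libraries, 5913929 to 9274191 reads stand behind a library, of which 35249 to 98167 fell on the members. On the same reading a level of 3 reads lay at 0.323 to 0.507 RPM, below the lowest member value of every library, and such floors cover counting error only. All rows of the table together summed to 259667 to 291915 RPM in iMLL-ENL libraries and 300012 to 384453 RPM in WT libraries, so a comparison of shares depends on the total chosen. WT replicate 2 stood apart, with a mean correlation of 0.927 with its own group over the tested members, against 0.983 to 0.991 for the iMLL-ENL libraries and 0.947 to 0.962 for the other WT libraries. Whole snoRNAs and their fragments were not told apart, and fewer cells with a snoRNA cannot be told apart from less of it per cell.

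Together the members summed to 9593, 8945, 10125 and 12296 RPM in iMLL-ENL replicates 1 to 4, and to 7627, 7269.9, 5960.4 and 9185 RPM in WT replicates 1 to 4. The highest WT library lay above the lowest iMLL-ENL library. The means were 10239.6 ± 1453 RPM in iMLL-ENL and 7511 ± 1327 RPM in WT (SD, n = 4 each), a ratio of 1.36. As a share of the sum of all rows the members took 3.70% ± 0.43 in iMLL-ENL and 2.26% ± 0.58 in WT (SD, n = 4 each), a ratio of 1.64 with no overlap. As a share of all snoRNA they took 43.6%, 43.7%, 44.9% and 43.8% in iMLL-ENL replicates and 42.6%, 41.7%, 40.8% and 42.2% in WT replicates, again with no overlap. No test was made on these sums, since the members were chosen with earlier results of these data known.

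A single row carried much of that gain. SNORD97.1 made up 12.9% of the member sum in iMLL-ENL and 5.47% in WT, and 33.3% of the difference between the sums. SNORD10.1 added another 14.0% of the difference. Without SNORD97.1 the members took 38.3% ± 0.24 of all snoRNA in iMLL-ENL and 39.5% ± 0.75 in WT (SD, n = 4 each). The groups then overlapped. The total of all snoRNA still held SNORD97.1, so leaving out a row that was higher in iMLL-ENL lowers that group's share more by arithmetic. The turn in direction therefore does not show that the remaining members fell as a share of the remaining snoRNA. Without SNORD97.1 the members summed to a mean of 8922 RPM in iMLL-ENL and 7100 RPM in WT, a ratio of 1.26. The snoRNA rows outside the members summed to means of 13040 and 10425 RPM, nearly the same proportion. Without SNORD97.1 and SNORD10.1 the shares of all snoRNA were 35.1% ± 0.42 in iMLL-ENL and 37.5% ± 0.81 in WT (SD, n = 4 each), with every iMLL-ENL library below every WT library. Both rows again stayed in the total, so this separation is at least partly built in and is not read as a result. The members without both rows summed to a mean of 8172 RPM in iMLL-ENL and 6731 RPM in WT, a ratio of 1.21. Shares with both rows taken out of the total as well were not computed. The share of the sum of all rows, in contrast, stayed higher in iMLL-ENL without both rows, at 2.95% ± 0.30 in iMLL-ENL and 2.02% ± 0.51 in WT (SD, n = 4 each), although the groups then overlapped.

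**Figure D1:**
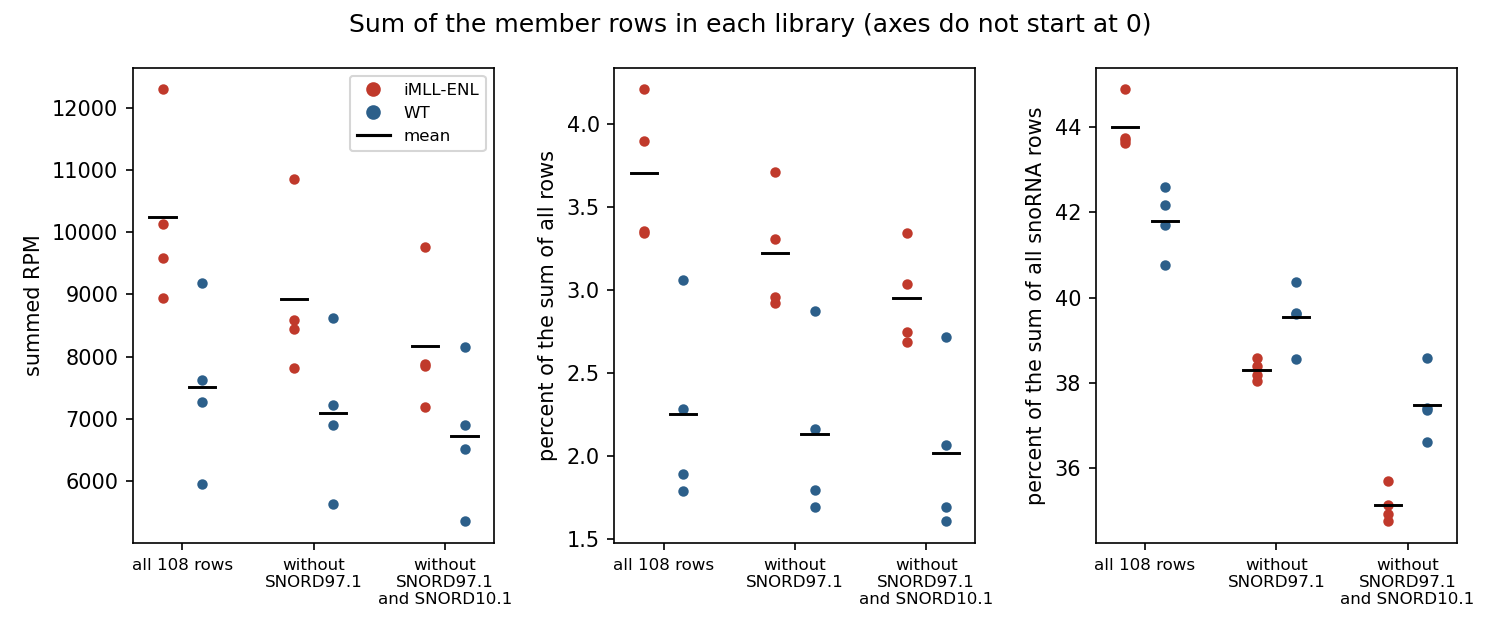
Sum of the member rows in each library in RPM (left), as a percent of the sum of all rows (middle) and as a percent of the sum of all snoRNA rows (right), with all 108 rows and without the leading rows; points are libraries, iMLL-ENL left of WT in each pair, and lines are means of 4. In the right panel the mean share was 44.0% in iMLL-ENL and 41.8% in WT with all rows, and 35.1% in iMLL-ENL and 37.5% in WT once SNORD97.1 and SNORD10.1 were left out. The rows left out of the member sum stayed in the totals, which by itself lowers the iMLL-ENL share more.

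Row by row, 96 members had at least 4 libraries at 10 RPM and were tested with limma on log2(RPM + 1) over all 633 rows that passed this filter. At a Benjamini-Hochberg adjusted p under 0.05, 15 members were higher in iMLL-ENL cells and 0 were lower. Over all tested rows 20.4% were called higher and 8.53% lower, so the 15.6% of members called higher lay below the background. At an unadjusted limma p under 0.05, 30 members were higher and 4 lower. The same count over all tested rows was not made, so whether these differ from the background is not known. The median log2 fold change (iMLL-ENL minus WT, as everywhere here) was 0.26 over the members and 0.31 over all tested rows, and 75 of the 96 members lay above 0. In 21 of the 96 members every iMLL-ENL library lay above every WT library, and in 2, Snord85 and Snord45b, every one lay below. The same held for 27.2% and 11.4% of all tested rows.

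**Figure D2:**
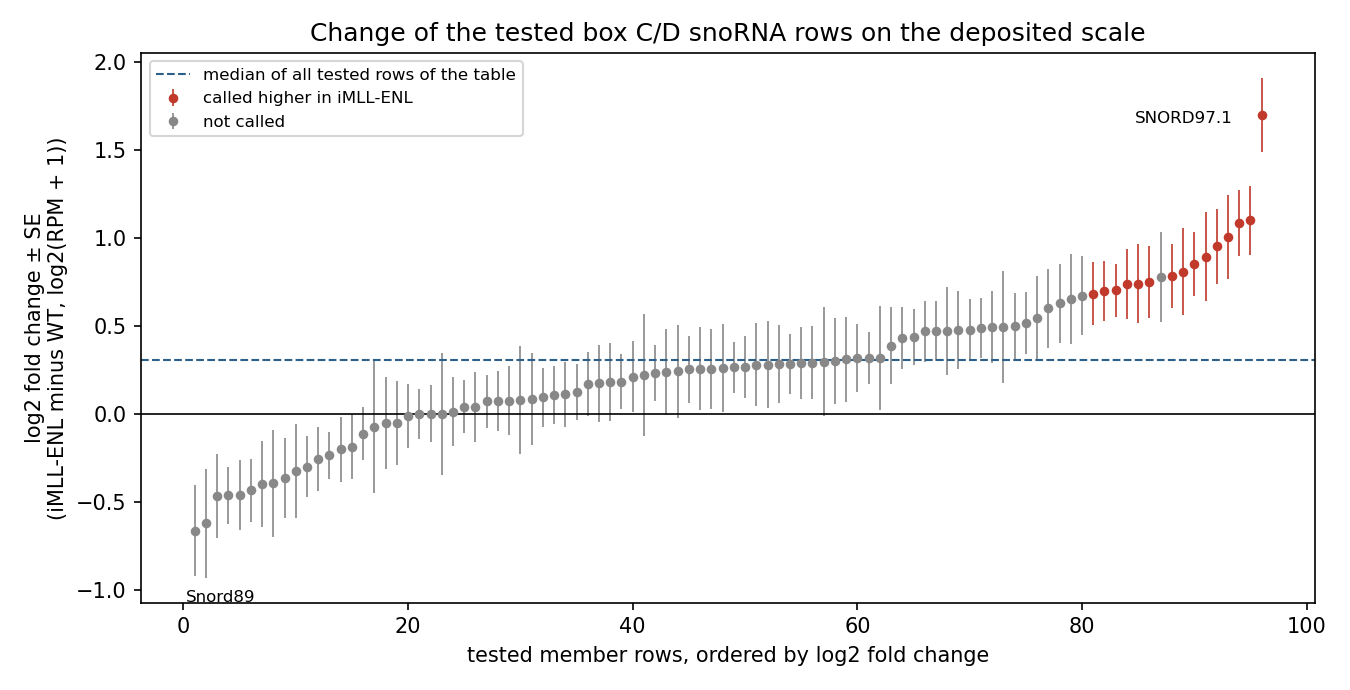
Log2 fold change (iMLL-ENL minus WT, on log2(RPM + 1)) of the 96 tested members in rising order, with SE bars from limma; red points were called higher, grey points were not called, and the dashed line is the median of all 633 tested rows. SNORD97.1 stands at 1.70, above all other members, and Snord89 is lowest at -0.66.

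The 12 members left untested lay between 1.43 and 18.04 RPM in every library. They include 4 of the 5 members whose human namesakes guide U6 snRNA (Snord7, Snord8, Snord67 and SNORD94.1). The ratio of means, iMLL-ENL over WT, was above 1 in 10 of the 12 and ran from 0.944 to 2.13. With no filter, 1 of the 12 was called higher: Snord92, a 28S guide within Wdr43, had 9.98, 10.8, 10.8 and 18.04 RPM in iMLL-ENL replicates and 6.30, 4.42, 5.41 and 7.15 RPM in WT replicates, without overlap. Its log2 fold change was 0.95 ± 0.25 (SE; limma adjusted p = 0.025). Of all 964 rows, 230 were called higher and 52 lower with no filter.

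The choice of total moved these counts. Scaled to the total of all rows, 36 members were higher and 0 lower, beside 39.7% and 4.27% of all rows. Scaled to the total of all snoRNA, 8 were higher and 17 lower, beside 5.85% and 18% of all rows. TMM factors gave 9 higher and 13 lower (9.48% and 16.6% of all rows), and quantile normalization 11 higher and 4 lower (11.1% and 9.95%). The median log2 fold change of the members was 0.54, -0.11, -0.01 and 0.14 under these 4 scalings, and that of all tested rows was 0.59, -0.06, 0.04 and 0.09. The other scaling left the 5 most abundant rows out of the total. It gave 15 higher and 0 lower, beside 128 and 57 of all 633 rows, with a member median of 0.26. That is nearly the deposited scale, so a call kept there adds little. Sample quality weights gave 35 higher and 14 lower (50.9% and 21.3%). Single libraries moved the count of higher members too. Without iMLL-ENL replicate 3 it was 8, with 0 lower, beside 10.4% and 3.32% of all rows. Without WT replicate 1 it was 5, with 0 lower, beside 7.27% and 2.05%. It was 26 without WT replicate 2, with 5 lower, beside 41.1% and 15.5%, and 27 without WT replicate 4, with 0 lower, beside 24.3% and 8.69%.

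SNORD97.1 had the largest change of the members. In human cells SNORD97 guides 2′-O-methylation of the elongator methionine tRNA, which makes it the only member assigned a tRNA target. It was listed at 1152, 1128, 1542 and 1450.0 RPM in iMLL-ENL replicates 1 to 4, against 399, 363, 322 and 558 RPM in WT replicates 1 to 4. Every iMLL-ENL library held at least 1128 RPM and no WT library more than 558. The log2 fold change was 1.70 ± 0.21 (SE; limma adjusted p = 0.0022), and it ranged from 1.32 to 1.99 over the 5 other scalings, with a call under each and without each library.

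SNORD10.1, whose human namesake guides U6 snRNA, had 589.8, 626, 704 and 1079 RPM in iMLL-ENL replicates, against 321, 394, 283 and 478 RPM in WT replicates. The groups did not overlap, and iMLL-ENL replicate 4 was the highest library. The log2 fold change was 1.01 ± 0.24 (SE; limma adjusted p = 0.017). It was called under all 5 other scalings (0.63 to 1.29) but lost its call without WT replicate 1 (limma adjusted p = 0.057). It was the only tested member of the 5 assigned to U6.

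Among the 10 members with the highest mean RPM, which counts reads and is not corrected for length, 4 were called higher: SNORD97.1, SNORD10.1, SNORD38.2 and Snord21. Over all tested rows 20.4% were called higher. Next after SNORD97.1 and SNORD10.1 came Snord104, a 28S guide, with 255, 247, 267 and 448 RPM in iMLL-ENL replicates and 203, 332, 206 and 281 RPM in WT replicates. WT replicate 2 lay above all but 1 of the iMLL-ENL libraries, and the log2 fold change was 0.24 ± 0.24 (SE), not called. Snord12, a 28S guide within the non-coding gene Zfas1, had 257, 266, 276 and 295 RPM in iMLL-ENL replicates and 222, 158, 164 and 257 RPM in WT replicates, with a log2 fold change of 0.48 ± 0.17 (SE; limma adjusted p = 0.065). Its groups met near 257 RPM without overlap. SNORD45.1 (0.12), Snord15a (0.26), Snord83b (0.11) and Snord45c (0.47) were not called either.

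By the role of their human namesakes, the largest group was that of the 28S guides, with 58 members. Of the 56 tested, 9 were called higher and 0 lower, beside 20.4% and 8.53% of all tested rows, with a median log2 fold change of 0.27. Under the total of all snoRNA 4 of the 56 were higher and 9 lower, beside 5.85% and 18% of all tested rows. Snord21, which is encoded in Rpl5, led the members with a mouse symbol, at 232, 185, 239 and 317 RPM in iMLL-ENL replicates and 109, 112, 94.4 and 138 RPM in WT replicates. No library of one group reached the range of the other. Its log2 fold change of 1.09 ± 0.19 (SE; limma adjusted p = 0.0080) kept its call under all 5 other scalings (0.71 to 1.37) and with any 1 library left out.

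SNORD88.2 was listed at 32.4, 33.8, 36.5 and 45.1 RPM in iMLL-ENL replicates and at 17.5, 16.2, 12.3 and 21.4 RPM in WT replicates, without overlap. Its log2 fold change was 1.10 ± 0.19 (SE; limma adjusted p = 0.0080). SNORD102.1 had 175, 178, 166 and 213 RPM in iMLL-ENL replicates and 108, 74.6, 96.4 and 132 RPM in WT replicates, with a log2 fold change of 0.85 ± 0.18 (SE; limma adjusted p = 0.013). Both kept their calls under the 5 other scalings and with any library left out. SNORD38.2 had 211, 199, 231 and 295 RPM in iMLL-ENL replicates and 129, 125, 114 and 176 RPM in WT replicates, also without overlap. Its log2 fold change was 0.78 ± 0.18 (SE; limma adjusted p = 0.016). It held under all 5 other scalings but was not called without WT replicate 1 (limma adjusted p = 0.054).

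The other 28S guides called higher were SNORD88.6 (log2 fold change 0.81), SNORD58.1 (0.74), Snord99 (0.74), SNORD48.1 (0.70) and Snord53 (0.68). None of these 5 kept its call when scaled to the total of all snoRNA. SNORD48.1 was called with any library left out (limma adjusted p up to 0.041). Snord99 lost its call without iMLL-ENL replicate 3, WT replicate 1 or WT replicate 3 (limma adjusted p up to 0.079), SNORD88.6 without those or iMLL-ENL replicate 1 or 4 (up to 0.094), Snord53 without any of the iMLL-ENL libraries or WT replicate 1 (up to 0.076), and SNORD58.1 without any of the iMLL-ENL libraries or WT replicate 1 or 3 (up to 0.098). Snord99 had 37.7, 37.3, 43.6 and 63.8 RPM in iMLL-ENL replicates and 24.8, 23.9, 24.5 and 32.7 RPM in WT replicates. Snord53 had 73.5, 62.8, 64.9 and 62.0 RPM in iMLL-ENL replicates and 44.2, 39.2, 29.9 and 52.0 RPM in WT replicates. In both, the groups did not overlap. SNORD58.1 did overlap, since WT replicate 4 reached 97.3 RPM, above the lowest iMLL-ENL library at 96.3 RPM.

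Of the 24 members that guide 18S by their human namesakes, 22 were tested and 4 were called higher and 0 lower, beside the same 20.4% and 8.53%, with a median log2 fold change of 0.43. Under the total of all snoRNA 2 were higher and 3 lower, beside 5.85% and 18% of all tested rows. SNORD93.2 had 83.1, 81.0, 85.9 and 141.9 RPM in iMLL-ENL replicates and 41.9, 53.3, 42.8 and 59.0 RPM in WT replicates. Its log2 fold change was 0.95 ± 0.21 (SE; limma adjusted p = 0.015), and its second row, SNORD93.1, gave 0.75 ± 0.20 (SE; limma adjusted p = 0.027). Neither row was called without WT replicate 1 (limma adjusted p = 0.054 and 0.081), and SNORD93.1 also lost its call under the total of all snoRNA, TMM factors and without iMLL-ENL replicate 3 or WT replicate 3. Snord82, encoded in Ncl, had 206, 172, 195 and 216 RPM in iMLL-ENL replicates and 130.2, 107, 96.6 and 158 RPM in WT replicates, with a log2 fold change of 0.70 ± 0.17 (SE; limma adjusted p = 0.020). The groups did not overlap, and the call was lost under the total of all snoRNA and without iMLL-ENL replicate 1, 3 or 4 or WT replicate 1 (limma adjusted p up to 0.059). SNORD62.2 (0.89) was called on the deposited scale, while its copies SNORD62.3 (0.78) and SNORD62.1 (0.67) just missed the threshold, both with a limma adjusted p of 0.050. SNORD62.2 in turn was not called under TMM factors or quantile normalization, nor without iMLL-ENL replicate 2, 3 or 4 or WT replicate 1 or 3 (limma adjusted p up to 0.087).

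**Figure D3:**
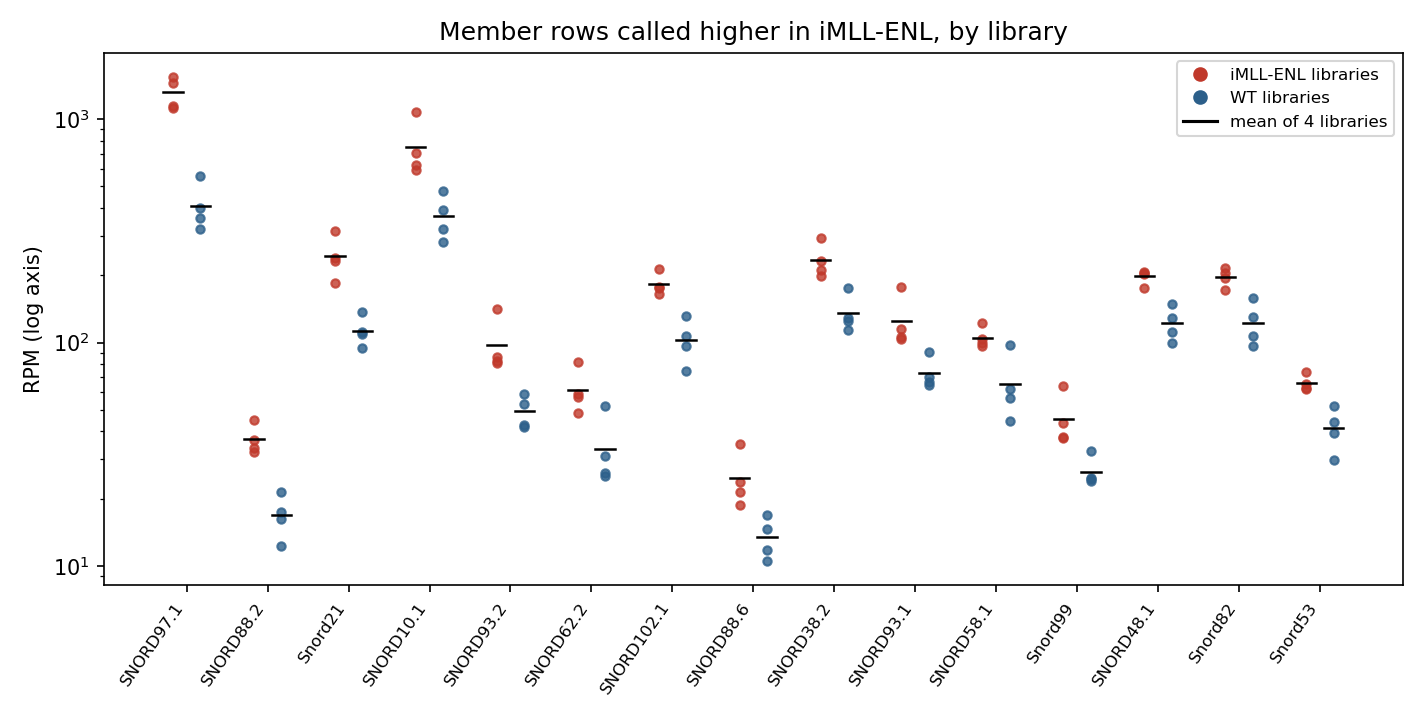
RPM (log axis) of the 15 members called higher in iMLL-ENL cells, one point per library, iMLL-ENL left of WT, with lines at the means of 4. SNORD97.1 lies between 1128 and 1542 RPM in iMLL-ENL libraries and between 322 and 558 RPM in WT libraries; the groups overlap only in SNORD62.2 and SNORD58.1.

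Members with both an 18S and a 28S target by their namesakes (SNORD36.1, SNORD36.2 and Snord68) gave 0 calls among 3 tested. The pair assigned to 5.8S ribosomal RNA was split in direction, with log2 fold changes of 0.25 for Snord96a and -0.40 for Snord71, neither of them called. The 15 members with no assigned target here gave 0 calls among 11 tested, with a median of 0.09, and they summed to 609 ± 71 RPM in iMLL-ENL and 598 ± 93 RPM in WT (SD, n = 4 each). Snord4a, which pairs with 18S below, is among them. Over all tested rows 20.4% were called higher and 8.53% lower.

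No member was called lower on the deposited scale. The lowest, Snord89, an orphan, had 8.93, 8.95, 8.30 and 12.3 RPM in iMLL-ENL replicates and 10.8, 21.6, 14.9 and 17.2 RPM in WT replicates. Only WT replicate 1 lay within the range of the iMLL-ENL libraries. Its log2 fold change was -0.66 ± 0.26 (SE; limma adjusted p = 0.078). SNORD18.2, a 28S guide, had 52.3, 37.5, 41.6 and 62.1 RPM in iMLL-ENL replicates and 95.5, 77.3, 38.9 and 101 RPM in WT replicates. WT replicate 3 was among the low libraries, and the log2 fold change was -0.62 ± 0.31 (SE; limma adjusted p = 0.15).

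Snord65, an 18S guide, had 42.7, 40.3, 42.3 and 57.4 RPM in iMLL-ENL replicates and 61.2, 92.7, 41.1 and 66.7 RPM in WT replicates, and its log2 fold change was -0.47 ± 0.24 (SE; limma adjusted p = 0.17). Snord1a, a 28S guide, had 14.6, 11.7, 12.3 and 13.2 RPM in iMLL-ENL replicates and 20.02, 17.4, 14.5 and 21.02 RPM in WT replicates. The groups touched at 14.6 RPM in iMLL-ENL replicate 1 and 14.5 RPM in WT replicate 3, and the log2 fold change was -0.46 ± 0.20 (SE; limma adjusted p = 0.11). Snord89, SNORD18.2, Snord65 and Snord1a were all called lower under the total of all snoRNA, TMM factors and quantile normalization, with log2 fold changes of -0.61 to -1.16. In all, 13 members were called lower under both the snoRNA total and TMM, among them Snord85 (-0.83 and -0.74) and SNORD24.2 (-0.81 and -0.71). Of all tested rows, 18% were called lower under the snoRNA total and 16.6% under TMM.

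**Figure D4:**
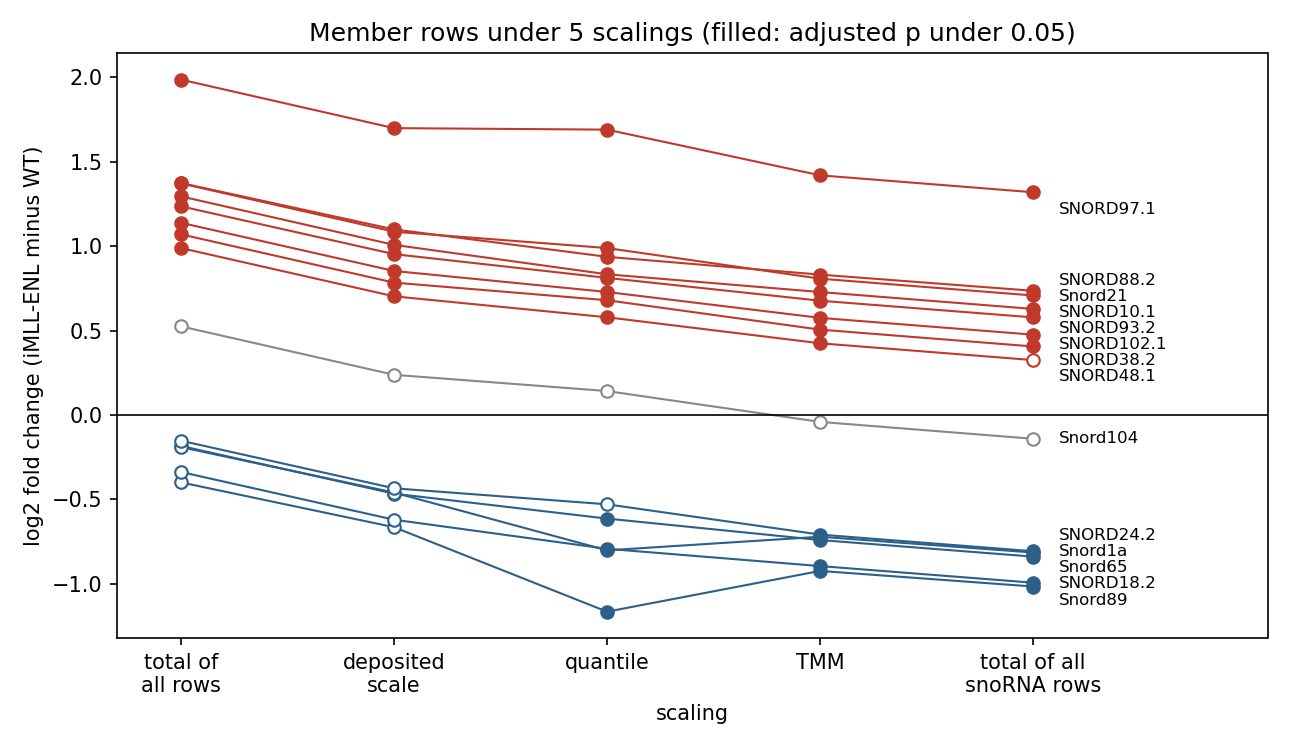
Log2 fold change (iMLL-ENL minus WT) of 14 members under 5 scalings; filled points have a limma adjusted p under 0.05, red lines are members called higher on the deposited scale, blue lines are 5 of the lowest members, and grey is Snord104. At the right end SNORD97.1 is at 1.32 and Snord89 at -1.02, and no blue member is called under the 2 scalings on the left.

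Several members are used as reference RNAs when small RNAs are measured by qPCR. These were picked out after their values had been seen, so they are described without a claim about the group. SNORD48.1, known as RNU48 in human assays, had 203, 176, 205 and 207 RPM in iMLL-ENL replicates and 129, 111, 99.8 and 149 RPM in WT replicates. Its groups did not overlap and its log2 fold change was 0.70 ± 0.15 (SE; limma adjusted p = 0.013), with 0.32 and no call under the snoRNA total (limma adjusted p = 0.0501). Snord61 (0.08), Snord68 (0.24), Snord72 (0.27), Snord95 (-0.30) and Snord96a (0.25) were not called on the deposited scale. Under the snoRNA total they came to -0.28, -0.14, -0.11, -0.66 and -0.12, with a call for Snord95, and Snord72 was called higher (0.55) under the total of all rows.

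Rows that share a number often moved together over the libraries, and where copies are near-identical it is uncertain which copy a read belongs to. The 5 rows of SNORD50, a 28S guide, ran from 0.26 to 0.30 in log2 fold change with a median pairwise correlation over the 8 libraries of 0.963. For the 3 rows of SNORD62 these were 0.67 to 0.89 and 0.984, for the 2 rows of SNORD93 0.75 to 0.95 and 0.986, and for the 3 rows of SNORD18 -0.62 to -0.20 and 0.939. These counts of calls over copies are therefore not independent. Other numbers were less uniform. SNORD88 ran from 0.22 in SNORD88.1 to 1.10 in SNORD88.2 (correlation 0.724), and number 45 from -0.23 in Snord45b to 0.47 in Snord45c (correlation 0.039). Snord111 (0.28) and SNORD111.1 (-0.39) had a correlation of -0.036. These correlations are descriptions over libraries of both groups.

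By host gene, the annotation placed 37 of the 49 intragenic members in protein-coding genes and 12 in non-coding genes, in 37 hosts in all, and 22 members overlapped an exon annotated for some transcript of the host. The 14 members in 10 ribosomal protein genes, all tested, had a median log2 fold change of 0.27 with 1 call (Snord21). The 19 tested in other coding genes had a median of 0.17 with 2 calls (Snord82 and Snord53), and the 11 tested in non-coding genes a median of 0.00054 with 1 call (Snord99). All these calls were higher, beside 20.4% of all tested rows. Members of 1 host did not all move alike. In Rpl23a the log2 fold changes were -0.37 for Snord4a, 0.07 for Snord42b and 0.50 for Snord42a, none of them called.

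For 8 hosts with more than 1 tested member, the log2 ratio of RPM + 1 of each of 14 pairs was compared between the groups by an exact two-sided permutation test over the 70 assignments of libraries, a comparison added after seeing the data. All ratios below are of RPM + 1, which lowers the ratio of a low member a little. In Rabggtb, Snord45c over Snord45b was 4.77, 4.90, 4.72 and 6.13 in iMLL-ENL replicates and 3.14, 3.07, 2.84 and 3.50 in WT replicates, a log2 difference of 0.70 ± 0.11 (SE) that was positive in every comparison of libraries. In Rack1, Snord96a over Snord95 was 3.44, 3.80, 3.94 and 5.20 in iMLL-ENL replicates and 2.90, 2.59, 2.78 and 2.78 in WT replicates, a log2 difference of 0.55 ± 0.13 (SE). In 1810032O08Rik, Snord1b over Snord1a was 3.46, 4.09, 4.19 and 4.86 in iMLL-ENL replicates and 2.52, 1.83, 3.32 and 3.18 in WT replicates, a log2 difference of 0.64 ± 0.22 (SE). These 3 pairs separated the groups and reached an exact permutation p of 0.0286, the smallest that 4 against 4 libraries allow, which became 0.133 after adjustment over the 14 pairs. None of the 14 passed 0.05 after adjustment. With that smallest p, a few pairs alone could not have passed, so this outcome says little. In each pair the member with the larger log2 fold change was set first, so every mean difference was positive by construction.

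**Figure D5:**
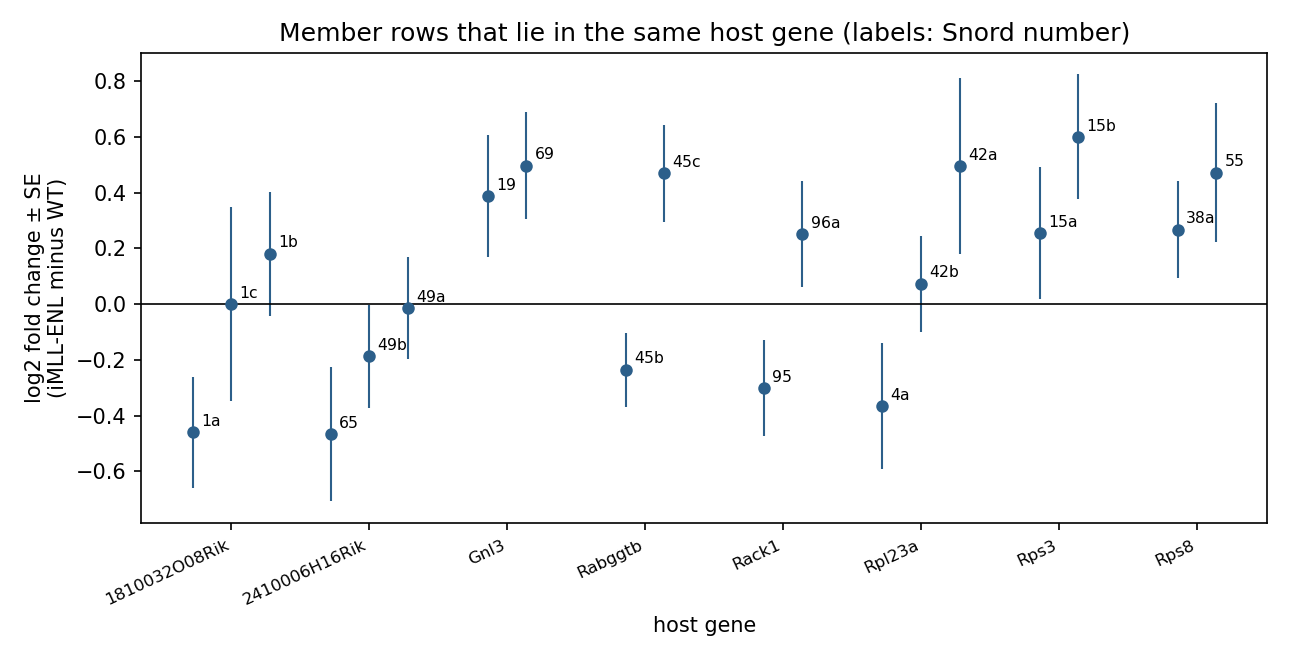
Log2 fold change (iMLL-ENL minus WT) with SE of the tested members that share a host gene, for the 8 hosts with more than 1; each point is a member, labelled with its Snord number. In Rabggtb, 45c lies at 0.47 and 45b at -0.23, and in Rpl23a the members run from -0.37 to 0.50.

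The pairing of guides with 18S could be read from the reference, which holds an 18S copy of 1849 bases on chromosome 17. In 9 of the 50 member transcripts (18%), at least 11 bases that end at a CTGA, or 1 base before it, pair without mismatch with that copy, against 2.52% of all 1508 snoRNA transcripts. The 1508 include the members and box H/ACA snoRNAs, which lack a D box, so this contrast does not set members against other box C/D snoRNAs. The 5 of the 9 that share a host are shown, since their guides and their changes can be set side by side. Capitals mark the pairing stretch and the CTGA downstream of it.
Snord42a: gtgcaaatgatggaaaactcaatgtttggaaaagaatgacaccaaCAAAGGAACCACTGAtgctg
Snord42b: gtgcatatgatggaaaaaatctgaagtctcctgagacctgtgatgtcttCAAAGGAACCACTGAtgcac
Snord4a: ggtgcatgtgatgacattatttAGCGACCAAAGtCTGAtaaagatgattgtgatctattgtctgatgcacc
Snord45b: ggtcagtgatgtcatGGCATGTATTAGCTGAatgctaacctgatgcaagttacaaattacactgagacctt
Snord45c: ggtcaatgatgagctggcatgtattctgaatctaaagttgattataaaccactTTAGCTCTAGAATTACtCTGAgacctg

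Snord42a and Snord42b carry the same 11 bases, which put the fifth base opposite position 116 of 18S, counted from the 5′ end of this copy. Their log2 fold changes were 0.50 ± 0.32 and 0.07 ± 0.17 (SE), neither called. Their pairing stretch covers positions 112 to 122, and that of Snord4a, from the same gene, positions 118 to 128, with the fifth base opposite position 121. Snord4a was nonetheless counted above among the members with no assigned target, not among the 18S guides. Snord45b pairs over 12 bases with the fifth base opposite position 172, and Snord45c over 16 bases opposite position 159, and their stretches, positions 168 to 179 for Snord45b and 156 to 171 for Snord45c, overlap. The other 4 were Snord82 (position 1685), Snord61 (1449), Snord98 (874) and Snord19 (690), and of all 9 only Snord82 was called. A match of letters is a description and does not show that the base is methylated in these cells.

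Length and base content showed little relation to the change. Across the 45 tested members with a sequence, Pearson's r of the log2 fold change was 0.091 with length and 0.0064 with GC percent. Across all 96 it was 0.321 with the mean log2(RPM + 1). These are correlations across members of the same 8 libraries, which are not independent replicates, and no test was made.

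Other snoRNA classes were counted beside the members, again against 20.4% of all tested rows called higher and 8.53% lower. Of 42 tested rows of other box C/D snoRNAs 16 were higher and 1 lower, with a median log2 fold change of 0.47, and of 41 tested box H/ACA rows 8 were higher and 0 lower, with a median of 0.53. The 8 tested scaRNA rows had a median of -0.04 with 3 higher. Under the snoRNA total the members had 8 rows higher and 17 lower of 96, against 11 higher and 9 lower in the tested snoRNA rows outside them (42 other box C/D, 41 box H/ACA, 8 scaRNA and 11 others). Under that total 5.85% of all tested rows were higher and 18% lower. There the medians were -0.11 for the members, 0.11 for other box C/D and 0.17 for box H/ACA rows. The differences between these classes were not tested.

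The authors' deposited table, which holds their own fold changes and false discovery rates, gave 3 members with an FDR under 0.05. In the authors' deposited table SNORD97.1 was higher (log2 fold change 1.30, FDR 0.0048), and Snord89 (-1.16, FDR 0.026) and SNORD18.2 (-1.07, FDR 0.039) were lower. At that FDR 4.56% of all 964 rows were higher and 11.9% lower in the authors' deposited table. The log2 fold changes of the authors' deposited table lay below those on the deposited RPM scale, by a median of 0.40 over the 96 tested members, and 68 of the 108 members were below 0 there.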

How the data were processed

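Per the labels' protocols, total RNA was purified with a Norgen kit for single cells and made into libraries with the QIAseq miRNA kit. The deposited values, 1 per row and library, are labelled as TPM by the authors, but whole multiples of 1 step per library (98.96% to 100% of values within 0.0055) show reads per 1000000, RPM. The table also holds the authors' log2 fold change, mean log2 CPM, p-value and FDR, per the file headers. The build was GRCm38, per the submitters' processing notes. Which aligner, counter and annotation were used, and how multiply mapped reads and molecular indexes were treated, is not given in the sources used here. Two-sided limma tests (version 3.58.1, R 4.3.3, statmod 1.5.0) used log2(RPM + 1), a trended robust prior and Benjamini-Hochberg adjustment over 633 rows with at least 4 libraries at 10 RPM; the fit was tested on simulated data. A pseudocount understates the change of low rows. Members and lists were chosen with earlier results of these data known. Roles are those of human snoRNAs of the same number, taken from general knowledge and not checked against a database. Rows named are those called, the 10 most abundant, those past 1 log2 unit and those that share a number; others were chosen after their values were seen. Alternatives were 5 scalings, pseudocounts of 0.5 and 10, no filter, a filter of 50 RPM, no trend, sample weights, a replicate block and each library left out. Transcripts, hosts and sequences come from GENCODE M21, matched by name, with Python 3.11.15, numpy 2.4.6, pandas 2.3.3 and scipy 1.17.1. The host gene of 1 member is not reported here.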

Additional observations from a re-analysis of the deposited data

Results flagged for a closer look

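Within each group of 4 libraries, a highest or lowest library was marked when its gap to the nearest other library, divided by the range of the group, passed Dixon's critical value for 4 values. Of 154 groups checked 15 were marked, and chance marks about 1 in 20. In 9 of them iMLL-ENL replicate 4 was far above the other iMLL-ENL libraries. That library also had the highest member sum, 12296 RPM against 8945 to 10125 RPM in the other iMLL-ENL libraries. Its TMM factor was 1.21 against 1.04 to 1.09, so these marks are not independent of each other. There SNORD93.1 had 177.4 RPM against 104 to 115 in the others, SNORD93.2 had 141.9 against 81.0 to 85.9, SNORD12.2 had 169.5 against 133 to 135, and SNORD16.1 had 160.5 against 137 to 139. Snord104 had 448 RPM against 247 to 267, Snord83b 242 against 158 to 169, Snord65 57.4 against 40.3 to 42.7, Snord49b 37.2 against 27.1 to 27.7, and Snord89 12.3 against 8.30 to 8.95. Low libraries were iMLL-ENL replicate 2 for SNORD48.1 (175.5 RPM against 203 to 207) and for Snord72 (106 against 125 to 129), and WT replicate 2 for Snord1c (28.6 against 77.3 to 84.8). WT replicate 4 was high for Snord45c (186 against 130.4 to 138) and for Snord99 (32.7 against 23.9 to 24.8). The members' share of all snoRNA was 44.9% in iMLL-ENL replicate 3, against 43.6% to 43.8% in the other iMLL-ENL libraries.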

How the results depend on the processing

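The count of members called higher was 15 on the deposited scale and 36 under the total of all rows, 8 under the total of all snoRNA, 9 under TMM factors, 35 with sample weights (whose fit gave a convergence warning) and 24 with the replicate block (151 of all 633 rows), and 5 to 27 with 1 library left out. The count called lower was 0, against 17, 13 and 4 under the total of all snoRNA, TMM factors and quantile normalization, 14 with sample weights, 2 with the replicate block (42 of all 633 rows) and 0 to 5 with 1 library left out. The 15 calls were lost in 7 members under the total of all snoRNA, 6 under TMM factors and 4 under quantile normalization, and the cause was not tested. Only SNORD97.1, SNORD88.2, Snord21 and SNORD102.1 kept their call under each of the 5 other scalings and with any library left out. At 50 RPM 12 of the 15 were still tested, and all 12 were called. With that filter 16 of the 64 tested members were higher and 0 lower, beside 84 and 57 of all 330 tested rows. Pseudocounts, no filter and no trend lost none of the 15. The deviations of same-numbered libraries from their group means had correlations of 0.39, 0.29, -0.13 and 0.42, so 3 of the 4 pairs deviated together and 1 did not. Replicates 1, 2 and 4 of iMLL-ENL each correlated best with their own number and replicate 3 did not. The labels give the numbers no meaning, and the libraries were not treated as paired.

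The difference in share of all snoRNA, 2.19 percentage points, was -1.23 without SNORD97.1 and -2.36 without SNORD97.1 and SNORD10.1, the second chosen after seeing the data, and 1.83 to 2.45 with 1 library left out. The rows left out stayed in the snoRNA total, which by itself lowers the iMLL-ENL share more. The changes of sign therefore do not show a fall of the other members among the other snoRNA. The difference in share of the sum of all rows, 1.45 percentage points, was 0.934 without both rows.

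Among 74 members followed through the alternatives, those below turned sign, given as log2 fold changes; none of them was called on the deposited scale. Under the total of all rows these were SNORD18.3 (0.082), SNORD95.1 (0.21), Snord45b (0.046), Snord49a (0.27), Snord49b (0.092) and Snord98 (0.21). The total of all snoRNA turned SNORD12.3 (-0.19), SNORD16.1 (-0.20), SNORD16.2 (-0.30), SNORD24.1 (-0.36), SNORD36.1 (-0.30), SNORD36.2 (-0.061), SNORD45.1 (-0.25), SNORD50.1 (-0.095), SNORD50.2 (-0.073), SNORD50.3 (-0.11), SNORD50.4 (-0.085), SNORD50.5 (-0.095), SNORD53_SNORD92.1 (-0.29), SNORD58.3 (-0.055), SNORD83.1 (-0.16), SNORD83.2 (-0.051), SNORD88.1 (-0.15), Snord104 (-0.14), Snord111 (-0.092), Snord15a (-0.12), Snord1b (-0.19), Snord1c (-0.37), Snord38a (-0.11), Snord42b (-0.30), Snord61 (-0.28), Snord68 (-0.14), Snord72 (-0.11), Snord83b (-0.27) and Snord96a (-0.12). TMM factors turned SNORD12.3 (-0.094), SNORD16.1 (-0.10), SNORD16.2 (-0.20), SNORD24.1 (-0.26), SNORD36.1 (-0.20), SNORD45.1 (-0.15), SNORD50.3 (-0.014), SNORD53_SNORD92.1 (-0.20), SNORD83.1 (-0.059), SNORD88.1 (-0.050), Snord104 (-0.041), Snord15a (-0.023), Snord1b (-0.093), Snord1c (-0.27), Snord38a (-0.0070), Snord42b (-0.20), Snord61 (-0.18), Snord68 (-0.036), Snord72 (-0.012), Snord83b (-0.17) and Snord96a (-0.024). Quantile normalization turned SNORD16.2 (-0.011), SNORD24.1 (-0.15), SNORD36.1 (-0.038), SNORD45.1 (-0.0073), SNORD53_SNORD92.1 (-0.089), SNORD58.3 (-0.10), SNORD88.7 (-0.082), Snord1c (-0.047), Snord42b (-0.0076), Snord61 (-0.083) and Snord83b (-0.057). Sample weights turned SNORD16.2 (-0.043), SNORD24.1 (-0.21), SNORD36.1 (-0.023), SNORD58.3 (-0.098), SNORD83.1 (-0.045), SNORD88.1 (-0.32), Snord1c (-0.36), Snord42b (-0.00029), Snord49a (0.097) and Snord61 (-0.024). Snord1c also turned once the scaling total omitted the 5 most abundant rows (-0.0033) and with a pseudocount of 10 (-0.015). With 1 library left out, these members spanned 0: SNORD16.1 (-0.053 to 0.30), SNORD16.2 (-0.22 to 0.32), SNORD24.1 (-0.12 to 0.16), SNORD36.1 (-0.0018 to 0.15), SNORD53_SNORD92.1 (-0.059 to 0.19), SNORD88.1 (-0.074 to 0.48), SNORD95.1 (-0.19 to 0.043), Snord1b (-0.014 to 0.34), Snord1c (-0.37 to 0.14), Snord42b (-0.050 to 0.20), Snord49a (-0.16 to 0.081), Snord61 (-0.12 to 0.27), Snord83b (-0.031 to 0.22) and Snord98 (-0.23 to 0.084).

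The planned edgeR and DESeq2 tests were not run, because in 6 of the 8 libraries the smallest value was more than 1 step, so that what 1 read is worth could not be settled there. The filter on low values left 12 members untested, and without it 16 members were called higher, beside 230 of all 964 rows.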
